A study of Mus musculus with 6 samples.

Results

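Pigment cell genes were examined in the newborn mouse lens as markers of the pigmented tissue that surrounds it. The 10 genes chosen were Tyr, Tyrp1, Dct, Pmel (older symbol Si), Slc45a2, Mlana, Mitf, Gpnmb, Rpe65 and Rlbp1, and every probe set annotated to 1 of them was taken, on all arrays. This gave 15 of the 22626 probe sets tested, for 9 of the 12393 genes that had a probe set of their own. Mlana had no probe set in the annotation used. The arrays profiled lens RNA of 1-day-old mice of 2 genotypes, wild type of the NMRI background and Pax6 heterozygotes, in which lacZ replaces 1 copy of Pax6 (Pax6lacZ/+). Each genotype had 3 samples, numbered 1 to 3 in the labels, and each sample pooled the 2 lenses of 1 mouse. Pax6 encodes a paired and homeodomain transcription factor needed for lens formation, and the comparison asked which transcripts depend on its dose. All values are linear signal intensities as the authors normalised them, in arbitrary units, so the level of 1 probe set is not on the same scale as that of another. Where probe sets are set side by side below, as for background or sums over genes, the comparison is rough.

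Melanin is made inside melanosomes, organelles of 2 cell lineages in the eye. Melanocytes arise from the neural crest and settle in the iris stroma and choroid, whereas the pigment epithelium of the retina, ciliary body and iris arises from the optic cup. Tyrosinase (Tyr) starts melanin synthesis, dopachrome tautomerase (Dct) and Tyrp1 carry out later steps, Pmel forms the fibrils on which melanin is laid down, and Slc45a2 is a transporter of the melanosome. Mitf is the transcription factor that drives these genes in both lineages, Gpnmb is a glycoprotein of melanosomes that macrophages also make, and Rpe65 and Rlbp1 serve the visual cycle, the latter in Mueller glia as well. NMRI mice are albino, a coat that in laboratory mice comes from a defective tyrosinase enzyme, while the pigment cells themselves remain. The lens holds no pigment cells.

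Markers placed the tissue first. The 13 lens genes measured, crystallins and fibre cell proteins, summed to 128162 to 155299 in wild type and to 125140 to 150689 in heterozygotes, and the brightest of them, Cryba1, reached 17785 in heterozygous replicate 3. Olfactory receptor genes, not known to act in lens, served as a guide to the level of an unexpressed gene. Their 33 probe sets had array medians of 9.65 to 11.02 and a highest value of 17.6. The brightest of 5 probe sets of Pax6 read 1169, 1760 and 963 in wild-type replicates 1, 2 and 3 and 942, 1170 and 882 in heterozygous replicates 1, 2 and 3. It was lower in the heterozygote of each replicate number, although the ranges of the genotypes overlapped (log2 difference -0.34 ± 0.24, SE, n = 3 per genotype, limma adjusted p = 1.00). The probe sets 1452526_a_at and 1425960_s_at were likewise lower in each heterozygote (-0.69 ± 0.41 and -0.48 ± 0.23), but 1437816_at, which read 51.2 to 85.6, was higher in each (0.19 ± 0.22), and 1456342_at was at background (-0.11 ± 0.13). Array medians lay between 21.4 and 22.8.

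The label of pigment cell genes was borne out in part. Tyrp1, Dct and Pmel were above the olfactory receptor guide on all 6 arrays, as was the brightest probe set of Tyr. Genes of the 2 pigment lineages were mixed, and several markers regarded as most typical of them were at background. Sox10, a transcription factor of neural crest melanocytes, read 10.5 to 14.4, and Mc1r, the melanocortin receptor of melanocytes, read 7.06 to 10.7. Of the visual cycle genes that define retinal pigment epithelium, Rpe65 itself read 8.87 to 11.03, Rdh5 11.2 to 14.5, Rgr 8.61 to 10.5 and Lrat 7.98 to 11.9. Mc1r, Rpe65, Rgr and Lrat stayed below the highest olfactory receptor value of their own array on all 6 arrays. Sox10 exceeded it on wild-type replicate 2 and Rdh5 on wild-type replicate 1, by less than 1 unit of signal each. Sox10, Rdh5, Rgr and Lrat were picked out after their values had been seen, and the full lists were less uniform. In the melanocyte lineage list 2 of 11 genes had a median above 17.6, and in the pigment epithelium and visual cycle list 8 of 16 did, among them Otx2 and Serpinf1, which other tissues also express.

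RefSeq promoter windows, running from 250 bases before to 50 bases after a transcript start on build GRCm38.p6, were at hand for 7 of the 10 genes. Those of Tyr, Tyrp1 and Dct are printed because these genes were bright together on the same arrays and because their windows hold the core of the M-box, TCATGTG, a motif that Mitf is known to bind in pigment genes. The windows are at chr7:87493463-87493762 (minus strand) for Tyr, chr4:80833963-80834262 (plus strand) for Tyrp1 and chr14:118052197-118052496 (minus strand) for Dct. Each is given 5′ to 3′ along the gene with TCATGTG, or its reverse complement, in capitals.
Tyr: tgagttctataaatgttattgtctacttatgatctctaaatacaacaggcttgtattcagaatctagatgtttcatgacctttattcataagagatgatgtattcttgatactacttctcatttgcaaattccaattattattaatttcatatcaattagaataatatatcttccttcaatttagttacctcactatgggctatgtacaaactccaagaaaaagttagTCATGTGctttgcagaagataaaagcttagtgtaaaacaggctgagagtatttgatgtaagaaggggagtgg
Tyrp1: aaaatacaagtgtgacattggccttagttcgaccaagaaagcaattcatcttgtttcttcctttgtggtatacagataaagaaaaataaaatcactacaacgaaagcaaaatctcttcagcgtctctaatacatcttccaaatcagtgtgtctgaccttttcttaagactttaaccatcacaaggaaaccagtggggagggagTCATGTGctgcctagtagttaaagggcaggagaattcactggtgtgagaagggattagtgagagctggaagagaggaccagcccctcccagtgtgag
Dct: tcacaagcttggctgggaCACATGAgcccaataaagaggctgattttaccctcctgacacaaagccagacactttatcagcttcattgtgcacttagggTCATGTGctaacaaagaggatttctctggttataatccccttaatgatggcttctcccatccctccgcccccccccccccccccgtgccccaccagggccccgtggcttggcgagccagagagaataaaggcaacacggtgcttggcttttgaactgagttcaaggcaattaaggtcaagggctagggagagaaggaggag
Searched on both strands, TCATGTG lay in windows of 3 of the 7 genes and in 3.77% of all 32851 windows of this length. It began 22 bases before the start in Tyr, 47 bases before it in Tyrp1 and 151 bases before it in Dct, where the reverse complement lay 232 bases before the start as well. The 11 letters around the site in Tyr, AGTCATGTGCT, were present in Tyrp1 too and in 7 windows in all (0.0213%), among them that of the complement gene C1qb. At the site on its coding strand Dct carried A1G relative to that run, counted from 1 at its 5′ end. The shorter CATGTG, which TCATGTG contains, was found in 5 of the 7 genes and in 14.2% of windows. These matches describe the reference sequence of RefSeq, not that of NMRI mice, and binding was not measured.

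The melanin enzymes differed more between replicate numbers than between genotypes. Signals of Tyr, Tyrp1 and Dct in replicate 1 of either genotype were 1.79 to 3.75 times the mean of replicates 2 and 3, leaving aside the dimmest Tyr probe set. On these probe sets wild type and heterozygotes of the same number differed by less, by up to 0.64 on the log2 scale (Dct, replicate 3). Dct (1418028_at, chromosome 14) read 502, 150 and 118 in wild-type replicates 1, 2 and 3 and 491, 172 and 184 in heterozygous replicates 1, 2 and 3. Both replicate 1 samples stood above all of the others, and the genotypes overlapped. On the log2 scale Dct was 1.63 ± 0.18 (SE) higher in replicate 1 than in replicate 2 and 1.75 ± 0.18 higher than in replicate 3, each over 1 sample per genotype, and the test of replicate number passed (limma F-test with genotype in the model, adjusted p = 0.0083). Replicates 2 and 3 differed by 0.12 ± 0.18, less than the error. In bulk RNA of this kind, fewer cells of a type and less RNA per cell cannot be told apart.

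Tyrp1 (chromosome 4) was read by 3 probe sets. The brightest, 1439409_x_at, was at 477, 223 and 280 in wild-type replicates 1, 2 and 3 and at 562, 199 and 332 in heterozygous replicates 1, 2 and 3. A second, 1415861_at, was at 551, 189 and 260 in wild type and at 553, 210 and 331 in heterozygotes, in the same order. In both genotypes replicate 1 was highest and replicate 2 lowest, and the genotypes overlapped. The third, 1415862_at, gave 97.2, 42.6 and 57.5 in wild type and 91.0, 43.6 and 57.9 in heterozygotes, again with replicate 1 highest and replicate 2 lowest. The 3 probe sets passed the test of replicate number at limma adjusted p = 0.0112, 0.0081 and 0.0094. Unlike Dct, Tyrp1 also separated replicate 2 from replicate 3, by -0.53 ± 0.15 on the log2 scale for the brightest probe set.

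Tyr (chromosome 7), the rate-limiting enzyme, was dimmer on its own scale. The brightest of its 3 probe sets, 1417717_a_at, read 81.1, 35.7 and 26.9 in wild-type replicates 1, 2 and 3 and 65.1, 33.8 and 36.8 in heterozygous replicates 1, 2 and 3. The second, 1456095_at, read 66.3, 25.9 and 22.3 in wild type and 86.3, 29.3 and 32.1 in heterozygotes. On both, the replicate 1 samples were the highest of the 6 and the remaining samples lay close together (limma adjusted p = 0.0202 and 0.0071 for replicate number). The third, 1448821_at, read 9.83 to 15.6, inside the range of the olfactory receptor guide, and did not pass (limma adjusted p = 0.246).

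Among the other melanosome genes, Pmel (1422523_at, chromosome 10) was at 230, 161 and 88.6 in wild-type replicates 1, 2 and 3 and at 211, 145 and 97.4 in heterozygous replicates 1, 2 and 3. All 3 numbers were apart, with replicate 1 highest and replicate 3 lowest in each genotype, which is the reverse of the order that replicates 2 and 3 took for Tyrp1. Replicate 1 exceeded replicate 2 by 0.52 ± 0.13 and replicate 2 exceeded replicate 3 by 0.72 ± 0.13 on the log2 scale (limma adjusted p = 0.0097 for replicate number). Slc45a2 (chromosome 15) was near background, and its 2 probe sets read 9.20 to 19.7. On 1451055_at the values were 19.7, 12.4 and 12.7 in wild type and 16.9, 12.2 and 12.4 in heterozygotes, and on 1437430_at they were 16.3, 9.56 and 9.20 in wild type and 13.7, 9.44 and 10.2 in heterozygotes. Both again had their 2 highest values in replicate 1 and passed narrowly (limma adjusted p = 0.0389 and 0.0388), but the call was lost when any 1 sample was left out.

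**Figure D1:**
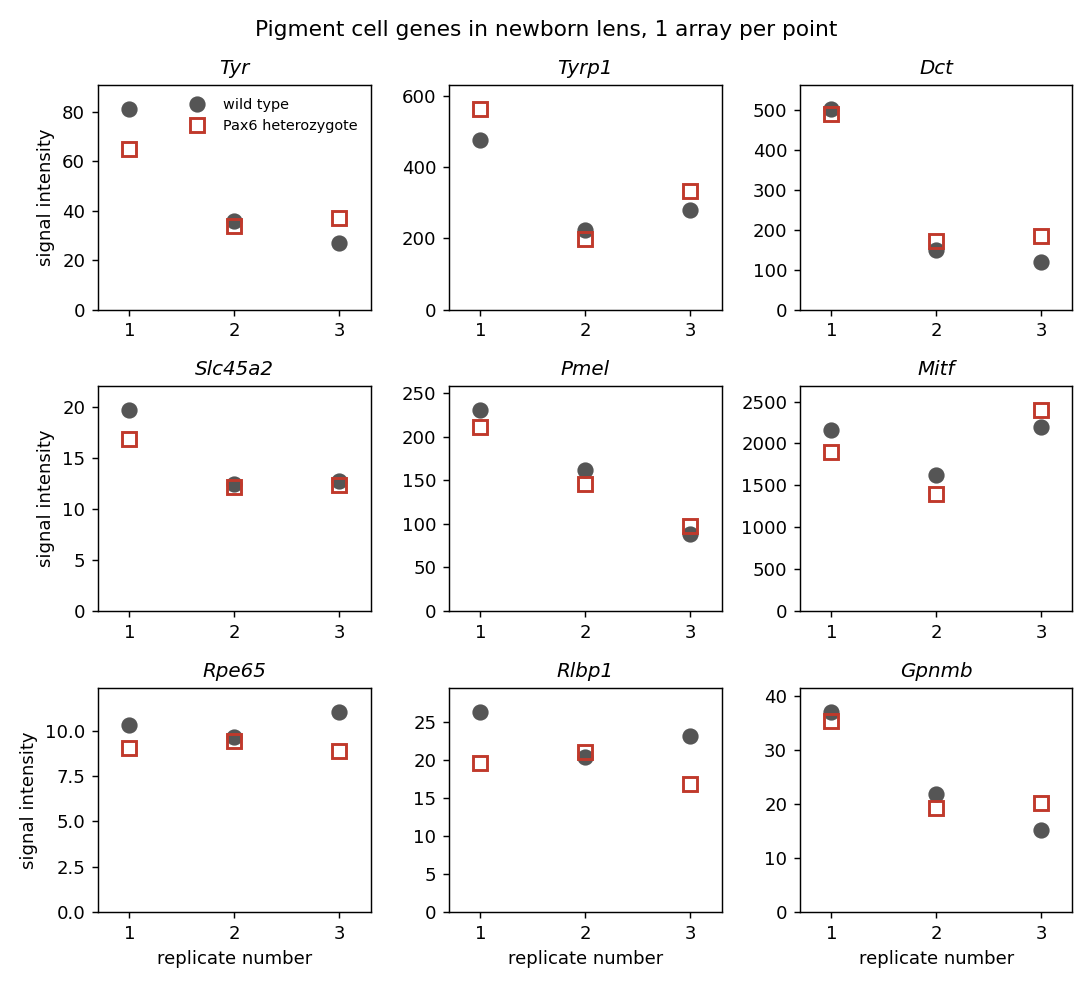
Signal intensity (linear, arbitrary units, each axis from 0) of the brightest probe set of 9 pigment cell genes by replicate number, with filled circles for wild type and open squares for Pax6 heterozygotes and 1 array per point. In Tyr, Tyrp1, Dct, Slc45a2, Pmel and Gpnmb both replicate 1 samples lie above the other 4 arrays, while Mitf, Rpe65 and Rlbp1 show no such order.

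Mitf (chromosome 6) did not follow the order of the melanosome genes. Its brightest probe set, 1455214_at, read 2166, 1620 and 2194 in wild-type replicates 1, 2 and 3 and 1891, 1394 and 2395 in heterozygous replicates 1, 2 and 3. Replicate 2 was lowest and replicate 3 highest in both genotypes, and the call by replicate number depended on the setting (limma adjusted p = 0.0581, and 0.0486 with median centring or 0.0019 with an intensity trend and robust prior). The second probe set, 1422025_at, read 31.3, 45.8 and 56.6 in wild type and 30.3, 43.0 and 47.8 in heterozygotes. Here replicate 1 was lowest in both genotypes, 0.53 ± 0.12 below replicate 2 and 0.76 ± 0.12 below replicate 3 on the log2 scale (limma adjusted p = 0.0227, lost without any 1 sample). Mitf has several promoters and is active outside pigment cells. Which of its transcripts each probe set reads was not analysed here, and a lens or other non-pigment source of this signal cannot be told apart from pigment cells.

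Gpnmb (1448303_at, chromosome 6) kept to the melanosome pattern at a low level. It read 37.2, 21.96 and 15.3 in wild-type replicates 1, 2 and 3 and 35.5, 19.3 and 20.2 in heterozygous replicates 1, 2 and 3. The replicate 1 samples were again highest in both genotypes, at 2.00 and 1.80 times the mean of the others, and the test of replicate number passed (limma adjusted p = 0.0221). Without wild-type replicate 1 the adjusted p was 0.118, and without heterozygous replicate 1 it was 0.087. Because macrophages also make Gpnmb, the macrophage list is given further on.

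The visual cycle genes, both dim, did not show this pattern. Rlbp1 (1418310_a_at, chromosome 7), the retinaldehyde carrier of pigment epithelium and Mueller glia, read 26.3, 20.3 and 23.1 in wild-type replicates 1, 2 and 3 and 19.6, 21.0 and 16.9 in heterozygous replicates 1, 2 and 3. The heterozygote was lower in replicates 1 and 3 and slightly higher in replicate 2, and the genotypes overlapped. Rpe65 (1450197_at, chromosome 3), the isomerase of the visual cycle, read 10.3, 9.65 and 11.03 in wild type and 9.06, 9.44 and 8.87 in heterozygotes, with no overlap but at the level of the olfactory receptor guide. Neither was called by replicate number (limma adjusted p = 0.641 for Rlbp1 and 0.953 for Rpe65), and at signals this near the olfactory receptor guide an order could be missed.

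Across the members, 11 of 15 probe sets passed the test of replicate number, against 19.4% of all probe sets, and 6 of 9 genes did so at their brightest probe set, against 21.1% of all genes. Of the 6 member probe sets with a median signal of at least 50, 5 passed, against 35.0% of probe sets that bright. In 11 of 15 probe sets both replicate 1 samples lay above the other 4 arrays, against 11.9% of all probe sets, and 10 met both criteria, against 4.25%. Only the dim probe set of Mitf had both replicate 1 samples below the other 4, an order found in 11.5% of all probe sets. The median member probe set was 0.65 higher in replicate 1 than in replicate 2 and 0.70 higher than in replicate 3 on the log2 scale, beside medians of 0.01 and -0.01 over all probe sets. The labels do not say what samples of the same number share, such as a litter or a day. Leaving out 1 sample at a time, an alternative added after the data had been seen, left 6 to 8 of the 15 probe sets past the threshold. Dct, Pmel, the 1456095_at probe set of Tyr and the 1415861_at and 1415862_at probe sets of Tyrp1 passed whichever sample was left out. The brightest Tyr probe set missed it without wild-type replicate 1 (limma adjusted p = 0.102), wild-type replicate 2 (0.0501) or heterozygous replicate 2 (0.0510), and the brightest Tyrp1 probe set without heterozygous replicate 1 (0.0565).

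**Figure D2:**
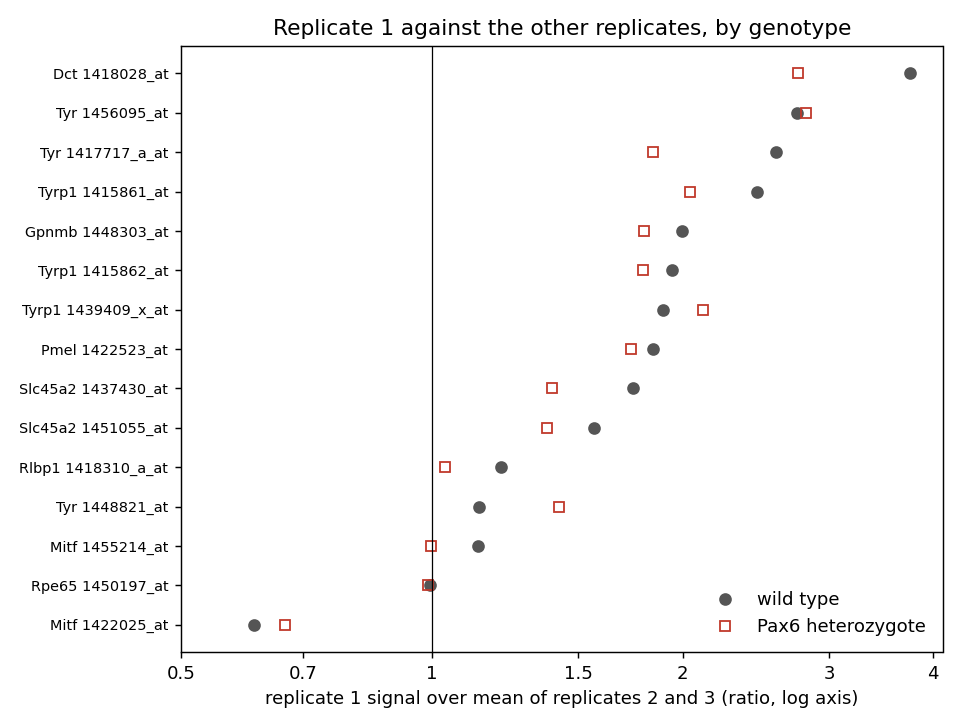
Ratio of the replicate 1 signal to the mean of replicates 2 and 3 (log axis) for the 15 member probe sets, with filled circles for wild type and open squares for Pax6 heterozygotes, 1 ratio per genotype. Dct has the highest ratio in wild type, at 3.75, beside 2.75 in heterozygotes. The 1456095_at probe set of Tyr has the highest in heterozygotes, at 2.81. The dim Mitf probe set has the lowest, at 0.611 in wild type and 0.667 in heterozygotes.

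By genotype, no member was called. None of the 15 probe sets passed limma at an adjusted p under 0.05, as in the whole table, where 0% passed, and none had an unadjusted p under 0.05, against 1.99% of all probe sets (0.977% higher and 1.01% lower in heterozygotes). Estimates were spread around 0, with 7 probe sets higher and 8 lower in heterozygotes. At the brightest probe set of each gene, the median log2 difference of heterozygote minus wild type was -0.05, beside -0.01 over all genes. That median had no stable direction, since it was -0.25 without heterozygous replicate 1 and 0.27 without wild-type replicate 1. Without a block the intervals were wide. For Dct the log2 difference was 0.27 ± 0.64 (SE) with a 95% interval of -1.28 to 1.81, for the brightest Tyrp1 probe set 0.11 ± 0.44 with -0.94 to 1.15, for Pmel -0.05 ± 0.42 with -1.05 to 0.95 and for the brightest Tyr probe set 0.02 ± 0.45 with -1.07 to 1.11. In this fit the intervals of Dct, Pmel and the brightest Tyr probe set included 1 log2 unit in the lower direction and those of Dct, Tyrp1 and Tyr in the higher; the blocked intervals, given further on, included it for none of them.

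The remaining members gave tighter values. The log2 difference was -0.10 ± 0.23 for the brightest probe set of Mitf, -0.10 ± 0.23 for that of Slc45a2 and 0.05 ± 0.38 for Gpnmb. Rlbp1 had the lowest p of the members (log2 difference -0.28 ± 0.15, limma adjusted p = 1.00), with a 95% interval of -0.64 to 0.08. The study placed this probe set on its list of changed genes, chosen on these same samples, so its direction is not independent evidence. Rpe65 was the only member without overlap between genotypes, an order that 6.18% of all probe sets showed, 3.53% with the heterozygotes lower (log2 difference -0.18 ± 0.11, limma adjusted p = 1.00). The methods' t-test on log2 signals called Rpe65 alone of the 15, both at their threshold of 0.10 (5.86% of all probe sets) and at 0.05 (2.94%), and no probe set after Benjamini-Hochberg adjustment, at a Rpe65 signal no higher than that of olfactory receptors.

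**Figure D3:**
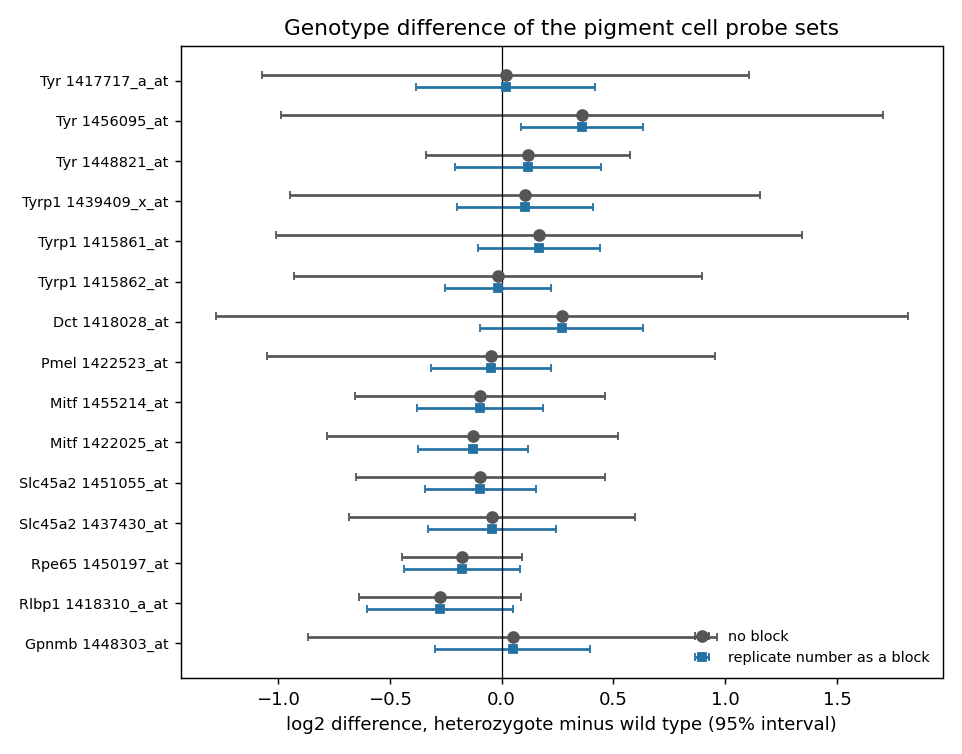
Log2 difference of heterozygote minus wild type (horizontal axis) for the 15 member probe sets, n = 3 per genotype, with 95% intervals from limma without a block (circles) and with the replicate number as a block (squares). Intervals of Dct, Tyr, Tyrp1 and Pmel narrow most with the block, and that of the 1456095_at probe set of Tyr then runs from 0.09 to 0.63.

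Same-numbered samples deviated together over all probe sets, so a second fit took the number as a block. Standard errors of the members fell to between 0.199 and 0.946 of those without it. With the block, Dct differed by 0.27 ± 0.15 with a 95% interval of -0.10 to 0.63, Pmel by -0.05 ± 0.11 with -0.31 to 0.22 and the brightest Tyrp1 probe set by 0.11 ± 0.12 with -0.20 to 0.41. No member passed at an adjusted p under 0.05, against 0.00884% of all probe sets, and 1 had an unadjusted p under 0.05, against 9.03%. That one was the 1456095_at probe set of Tyr, higher in the heterozygote of all 3 replicate numbers (0.36 ± 0.11, limma adjusted p = 0.462). The brightest Tyr probe set, at 0.02 ± 0.16 in the same fit, gave a 95% interval of -0.38 to 0.42.

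Other genes of melanin synthesis and melanosome transport were more mixed. Of 30 listed, 23 were measured and 14 had a median of at least 50. None passed by genotype, 7 were higher and 16 lower in heterozygotes, and the median log2 difference was -0.07. By replicate number 6 of 23 passed (26.1%, against 21.1% of all genes), and in 5 both replicate 1 samples were highest. Trpm1, melastatin, a channel of melanocytes and retinal bipolar cells, was picked out after its values were seen, since it followed Dct closely. It read 325, 121 and 148 in wild-type replicates 1, 2 and 3 and 411, 152 and 178 in heterozygous replicates 1, 2 and 3, with both replicate 1 samples far above the others (limma adjusted p = 0.0071 for replicate number). Oca2, the melanosomal membrane protein behind the pink-eyed dilution coat, read 61.9, 76.4 and 76.0 in wild type and 74.6, 62.8 and 48.7 in heterozygotes, with no shared order. Hps1, a subunit of a complex for melanosome biogenesis, was near background at 10.4 to 21.3, and Snapin, the brightest of the list and a general trafficking protein, read 2144 to 2463.

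Genes of the melanocyte lineage were mostly dim. All 11 listed were measured, none had a median of 50 or more, and their summed signal was 136 to 184 in wild type and 134 to 186 in heterozygotes. In heterozygotes 3 were higher and 8 lower, with a median log2 difference of -0.11 and none past the threshold. By replicate number 3 of the 11 passed (27.3%, against 21.1% of all genes). The brightest, Kitl, encodes the ligand that melanocytes need through the receptor Kit. It read 37.3, 21.0 and 21.0 in wild-type replicates 1, 2 and 3 and 53.2, 26.8 and 23.2 in heterozygous replicates 1, 2 and 3, so that it too was highest in replicate 1 of both genotypes (limma adjusted p = 0.0127). Ednrb, the endothelin receptor of the lineage, read 10.99 to 45.0 with its highest value in wild-type replicate 3. Of the Mitf family, Tfeb (11.7 to 17.2) and Tfec (14.3 to 19.0) were measured, both near background, and neither passed either test.

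The pigment epithelium and visual cycle list had 16 of 21 genes measured, 5 with a median of at least 50. None passed by genotype after adjustment, 4 were higher and 12 lower in heterozygotes, and the median log2 difference was -0.13. By replicate number 3 of the 16 passed (18.75%, against 21.1% of all genes). The lowest unadjusted p values pointed in opposite directions. Serpinf1, pigment epithelium-derived factor, read 569, 440 and 488 in wild-type replicates 1, 2 and 3 and 399, 321 and 329 in heterozygous replicates 1, 2 and 3. The genotypes did not overlap, and the log2 difference was -0.51 ± 0.15 (limma adjusted p = 1.00). Otx2, a transcription factor of pigment epithelium and photoreceptor precursors, read 194, 156 and 156 in wild type and 442, 411 and 185 in heterozygotes. Its heterozygous replicate 3 overlapped with wild type, and the log2 difference was 0.94 ± 0.34 (limma adjusted p = 1.00). Slc16a1, a lactate transporter and the brightest of the list, read 774 to 1768.

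Endothelial genes, of another tissue next to the lens, moved with the melanosome genes across replicate numbers. Expressed as a median over genes of the log2 signal minus the genotype mean, the 5 melanosome genes were at 0.63, -0.26 and -0.67 in wild-type replicates 1, 2 and 3 and at 0.59, -0.36 and -0.23 in heterozygous replicates 1, 2 and 3. Endothelial genes were at 0.48, -0.14 and -0.30 in wild type and at 0.75, -0.24 and -0.58 in heterozygotes, likewise highest in replicate 1. Of 10 endothelial genes, 8 passed by replicate number (80.0%), and their summed signal was 825 to 1974 in wild type and 1083 to 3590 in heterozygotes. By genotype all 10 were higher in heterozygotes, with a median log2 difference of 0.43 and none past the adjusted threshold, but the median was -0.01 without heterozygous replicate 1 and 0.13 without wild-type replicate 3. Flt1, a receptor for vascular endothelial growth factor picked out after its values were seen, read 914, 145 and 175 in wild type and 1854, 140 and 225 in heterozygotes. Tek, the angiopoietin receptor, read 421 to 628 in wild type and 604 to 927 in heterozygotes, and Pecam1 9.62 to 12.4 and 12.2 to 20.6. The part of endothelium in the melanosome pattern was not tested.

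Macrophage genes were high in replicate 1 too, but with another order among the rest. They were at 0.48, -0.23 and -0.48 in wild-type replicates 1, 2 and 3 and at 0.55, 0.33 and -1.28 in heterozygous replicates 1, 2 and 3. Heterozygous replicate 2 was thus raised for macrophage genes and not for melanosome genes. Of 19 macrophage genes, 11 passed by replicate number (57.9%), and their summed signal was 856 to 2394 in wild type and 551 to 2701 in heterozygotes. By genotype 15 of 19 were higher in heterozygotes, with none past the adjusted threshold, and their median log2 difference of 0.30 ran from -0.08 without heterozygous replicate 1 to 1.00 without heterozygous replicate 3. C1qb, a complement subunit and the brightest of the list, read 528, 114 and 149 in wild type and 557, 325 and 89.8 in heterozygotes, whereas Gpnmb was at 19.3 in heterozygous replicate 2 and at 20.2 in heterozygous replicate 3. Cd68 read 12.6 to 34.9 and Cd163 45.7 to 88.8. The part of macrophages in the Gpnmb values was not tested.

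Lens genes had their lowest medians in replicate 1. They were at -0.15, 0.13 and -0.01 in wild-type replicates 1, 2 and 3 and at -0.15, 0.14 and 0.00 in heterozygous replicates 1, 2 and 3. In 8 of 13 both replicate 1 samples were the lowest of the 6, an order found in 1339 of all 12393 genes. By replicate number 3 of the 13 passed (23.1%), close to the 21.1% of all genes. Gja3, a connexin of lens fibres, read 291, 813 and 404 in wild type and 183, 583 and 279 in heterozygotes, lowest in replicate 1 of each genotype though with overlap between numbers, and Crygn read 7001 to 9853. Neural retina genes did not follow the numbers. Only 2 of 15 passed (13.3%), and 13 were higher in heterozygotes, with a median log2 difference of 0.39 and a summed signal of 1040 to 1259 in wild type and 1421 to 2007 in heterozygotes. The median was 0.14 without heterozygous replicate 2. Within that list Stmn3, a neuronal stathmin, read 171 to 283 and 346 to 428, the transcription factor Neurod1 122 to 141 and 189 to 273, and Elavl4, a neuronal RNA-binding protein, 66.6 to 80.1 and 47.5 to 54.1, in wild type and heterozygotes respectively, none past the adjusted threshold. The list for Mueller glia, the second source of Rlbp1, had 9 of 12 genes higher in heterozygotes. Its median log2 difference was 0.19 and ran from 0.05 without wild-type replicate 2 to 0.44 without heterozygous replicate 3. Whether these genes read Mueller glia in this tissue was not tested. None of them passed by genotype after adjustment. Kcnj10, a potassium channel, read 11.7 to 13.5 in wild type, at the level of the olfactory receptor guide, and 17.1 to 21.4 in heterozygotes. Car2, a carbonic anhydrase, read 262 to 278 and 313 to 432, and Dkk3, a secreted Wnt modulator, 6670.1 to 8573.5 over all arrays. Aqp4, picked out after its values were seen, went the other way, at 67.6 to 95.6 in wild type and 64.0 to 66.4 in heterozygotes. Genotypes did not overlap in 6.18% of all probe sets. Of 11 ciliary body and iris genes, 3 passed by replicate number and none by genotype after adjustment. In heterozygotes 9 were higher, with a median log2 difference of 0.07. That median fell to 0.01 when the probe sets of each gene were averaged and to 0.05 with median centring. Omitting 1 sample gave 0.06 at the lowest (heterozygous replicate 1) and 0.14 at the highest (wild-type replicate 3). Atp1b2 and Wfdc1 were named for the lowest p by genotype on this list. Atp1b2, a sodium pump subunit, read 18.3 to 19.5 in wild type and 23.3 to 30.5 in heterozygotes. Wfdc1 read 92.8 to 156 and 115 to 271 in the same order, and Zic1, a transcription factor, 2187 to 2666 over all arrays. The part of these tissues in the member values was not tested.

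**Figure D4:**
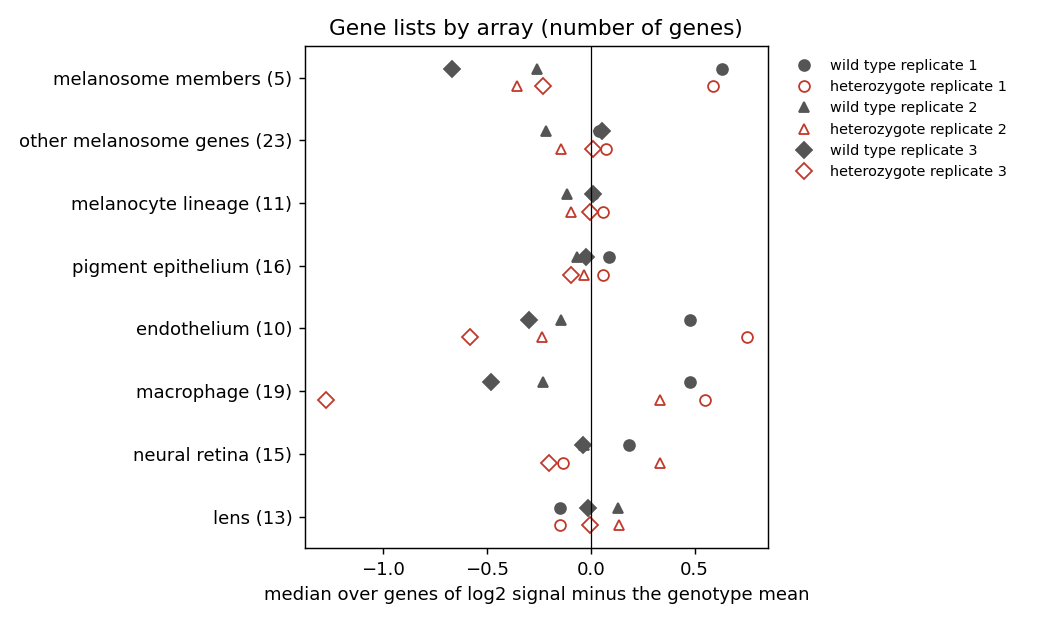
Median over the genes of a list of the log2 signal minus the mean of its genotype (horizontal axis), 1 symbol per array, with filled symbols for wild type, open symbols for Pax6 heterozygotes and circles, triangles and diamonds for replicates 1, 2 and 3. Replicate 1 of both genotypes lies right of the other arrays for melanosome members (0.63 and 0.59) and endothelium (0.48 and 0.75) and left of them for lens (-0.15 and -0.15).

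Likeness of pattern was measured as Pearson correlation over the 6 arrays with the mean profile of Tyrp1, Dct and Pmel, the melanosome genes with a median of at least 50, among 5545 other genes that bright. The closest were Mrpl1 (r = 0.996), Kctd17 (0.992), Nop56 (0.991), Pfkfb3 (0.985) and Ahcy (0.984), and 34 genes exceeded 0.95. Of the members not used in the profile, Gpnmb had r = 0.982, Tyr 0.981 and Slc45a2 0.940, whereas Rlbp1 had 0.287, Mitf 0.171 and Rpe65 -0.200. Trpm1 had 0.947. Genes closest to Mitf were Paip2b (0.994), Tbc1d19 (0.993) and Pex13 (0.985), with 96 genes over 0.95. Closest to Gpnmb were Nop56 (0.997), Fh1 (0.989) and Ehd1 (0.988), and to Rlbp1 St6galnac6 (0.962), Tmem223 (0.941) and Gm5617 (0.940). The 6 points share arrays and the replicate numbers, so these values describe a common order of arrays and nothing more.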

How the data were processed

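Lens RNA of 6 postnatal day 1 mice, 3 per genotype, was amplified and hybridised to Affymetrix arrays. The deposited values are linear signal intensities that the authors obtained by robust multichip averaging (RMA; version not given in the sources used here). The table used here holds 22626 probe sets, fewer than the array named in the methods, beside 64 controls that were left out. Gene names came from the platform annotation: 20380 probe sets had 1 gene, 691 several and 1555 none, and 20351 matched RefSeq by Entrez number. RMA draws information from all arrays and compresses low signals, so differences near background are understated. Array data give no read depth, and the number of arrays limits precision.

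Signals were log2 transformed without an offset and fitted with limma 3.58.1 (R 4.3.3) over all probe sets, with Benjamini-Hochberg adjustment and a threshold of 0.05. The script was tested on simulated data. Genotype was fitted alone, and replicate number was tested with an F-test in a model with genotype. Same-numbered samples correlated in their deviations from the genotype mean (r = 0.645, 0.734 and 0.604, against -0.496 to -0.0751 for different numbers), so a blocked fit by number was given as well. Deviations cancel within a genotype, so positive values for the same number bring negative ones for different numbers, which are no separate contrast. The pairing comes from the numbers in the sample titles and this check. The design text calls the replicates biological, and p-values of the fit by genotype alone measure the spread between these mice. In the blocked fit and the F-test, differences between numbers are taken out. Their p-values measure only the spread left after genotype and number, not that between mice of a genotype. The methods' t-test was run on the same log2 values.

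One probe set, the brightest by mean, stood for a gene in list counts. Named were all members, of each other list the 2 genes of lowest p by genotype and the brightest, the 5 genes most like the melanosome profile, the 3 most like Rlbp1, Mitf and Gpnmb, and Pax6. Members, lists and rules were chosen with earlier results of these data known. Lists covered melanosome genes, melanocyte lineage, Mitf family, pigment epithelium, Mueller glia, macrophage, ciliary body and iris, neural retina, endothelium and lens. Promoter windows came from RefSeq (GRCm38.p6). Alternatives were median centring, quantile normalization, array weights, an intensity trend, signal filters, averaging the probe sets of each gene and omitting 1 sample at a time.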

Additional observations from a re-analysis of the deposited data

How the results depend on the processing

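No member passed the adjusted threshold by genotype under any alternative run. Of 117 values of the 9 member genes under alternatives, 100 kept their direction and 17 turned, 14 of them on leaving out a sample. The brightest Tyr probe set, at 0.02, turned to -0.0211 with array weights, -0.00618 with median centring and -0.00289 with quantile normalization. Leaving out 1 sample gave log2 differences of -0.31 to 0.48 for Tyr, -0.27 to 0.48 for Tyrp1, -0.22 to 0.91 for Dct, -0.42 to 0.27 for Pmel, -0.28 to 0.11 for Mitf, -0.25 to 0.12 for Slc45a2, -0.25 to 0.39 for Gpnmb, -0.37 to -0.18 for Rlbp1 and -0.23 to -0.13 for Rpe65.

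Over all probe sets, 0 passed by genotype with limma and 2 with the replicate block, which changed no other call. At an unadjusted p under 0.05, 450 passed, 2042 with the block, 125 with a median signal of at least 50 and 87 with at least 100. Leaving out 1 sample gave list medians of -0.25 to 0.27 for the members, -0.12 to 0.04 (without heterozygous replicate 2) for other melanosome genes, -0.15 to 0.00 (without wild-type replicate 3) for the melanocyte lineage, -0.14 to -0.05 (without heterozygous replicate 3) for pigment epithelium and -0.12 to 0.03 (without wild-type replicate 2) for lens. By replicate number, 11 member probe sets passed, and 12 with median centring or an intensity trend, the brightest of Mitf being the addition. With a median signal of at least 50 it was all 6 left, that of Mitf among them, and with at least 100 all 5 left, and 6 to 8 remained past the threshold on leaving out a sample, lowest without replicate 1 of either genotype. Over all probe sets 4400 passed, and 1542 to 2325 on leaving out a sample, where fewer samples enter the fit. Signals near background, as for Rpe65, Slc45a2 and the dimmest Tyr probe set, limit what can be seen.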
